A study of Homo sapiens with 6 samples.

Results

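Potassium channel genes were taken as every gene symbol that begins with KCN, one or more further letters and a number, leaving out antisense and intronic transcripts. The rule found 97 of the 26364 gene symbols measured. Of these, 95 code for pore-forming or accessory subunits in 20 subfamilies, and 2 are noncoding transcripts (KCNQ1OT1 and KCNQ1DN). RNAseq of A673 cells, a line established from a Ewing sarcoma, was compared between 3 libraries with high and 3 libraries with low expression of EWSR1::FLI1, the fusion transcription factor that drives this tumor. All 6 libraries came from A673/TR/shEF cells, which make a tetracycline repressor and, when induced, an shRNA directed at the fusion, and were kept in blasticidine and zeocin. The EWSR1::FLI1 high libraries came from cells without doxycycline. The EWSR1::FLI1 low libraries came from cells given 1 µg/mL doxycycline for 72 h, so that an effect of the drug itself cannot be told apart from that of the knockdown. The submitters' design text speaks of independent clones and the sample titles of experiments, so the p-values measure the spread between these libraries, which may be technical. In bulk RNA, fewer cells with a transcript and less of it per cell cannot be told apart.

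Potassium channels let potassium leave the cell along its gradient and thereby set the resting membrane potential, shape action potentials and control cell volume. Voltage-gated channels (KCNA, KCNB, KCNC, KCND, KCNH and KCNQ) open on depolarization, calcium-activated channels (KCNN and KCNMA) open when intracellular calcium rises, and inward rectifiers (KCNJ) and leak channels with paired pore domains (KCNK) conduct near rest. The KCNF, KCNG, KCNS and KCNV proteins form no channel alone and modify KCNB channels, while KCNE, KCNAB, KCNIP and KCNMB proteins are accessory subunits. EWSR1::FLI1 is known to bind tandem GGAA repeats and to use them as enhancers in Ewing sarcoma cells.

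Reads on genes, recovered from the deposited FPKM values, ranged from 6980361 to 16658933 per library. FLI1, part of which is in the fusion transcript, was at 11.3, 12.7 and 14.2 FPKM in the EWSR1::FLI1 high libraries and at 2.91, 4.29 and 3.68 FPKM in the EWSR1::FLI1 low libraries (log2 fold change -1.57, adjusted p = 0.000676, limma with Benjamini-Hochberg adjustment over all genes tested). EWSR1, which these cells also transcribe from the intact allele, had a mean of 91.5 ± 13.9 against 65.1 ± 16.0 FPKM (SD, n = 3 each, adjusted p = 0.159). The Ewing sarcoma markers CD99, NKX2-2, NR0B1 and STEAP1 were present without doxycycline, at mean levels from 4.56 to 152 FPKM. EWSR1::FLI1 low replicate 1 stood apart at low levels, with a lower quartile of 0.372 FPKM over all genes against 0.143 to 0.232 FPKM in the other 5 libraries. Of 11 markers of other cell types, the neuronal gene SYT1 was at 60.7 FPKM on average without doxycycline, and the other 10 had means of 0.0847 to 0.646 FPKM there and of 0.0834 to 1.12 FPKM with doxycycline. Their summed level was 2.42 to 3.52 FPKM without and 3.04 to 5.92 FPKM with doxycycline, and its part in the results on channel genes at similar levels was not tested. None of the 11 was at 0 in all libraries, and the leukocyte gene PTPRC, at a mean of 0.405 FPKM, was at or above the mean level of 50 of the 97 potassium channel genes.

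Of the 97 potassium channel genes, 41 reached a mean of 0.5 FPKM over the 6 libraries and were tested. The members that fell in the EWSR1::FLI1 low libraries were the calcium-activated channel gene KCNN1, the accessory subunit gene KCNE3, the voltage-gated channel gene KCNH5 and the modifier subunit genes KCNS3 and KCNG3. These 5 are 12.2% of the members tested at an adjusted p under 0.01, against 7.88% of all 15504 genes tested called in either direction and 3.37% called lower. No member was called higher by limma, against 4.51% of all genes. At an unadjusted p under 0.05, limma had 9 members higher and 10 lower. The share of all genes at that unadjusted limit was not counted. With limma-voom on the recovered reads of 55 members, 3 were called higher (6.11% of all genes) and 6 lower (4.99%). At an adjusted p under 0.05, limma called 6 members higher (9.87% of all genes) and 8 lower (9.91%). The EWSR1::FLI1 low libraries lay wholly above the EWSR1::FLI1 high libraries for 12 of the 41 (17.5% of all genes) and wholly below for 13 (23.6%). The median log2 fold change was 0.07 over the 41 members and -0.05 over all genes tested, with 23 members above 0 and 18 below.

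**Figure D1:**
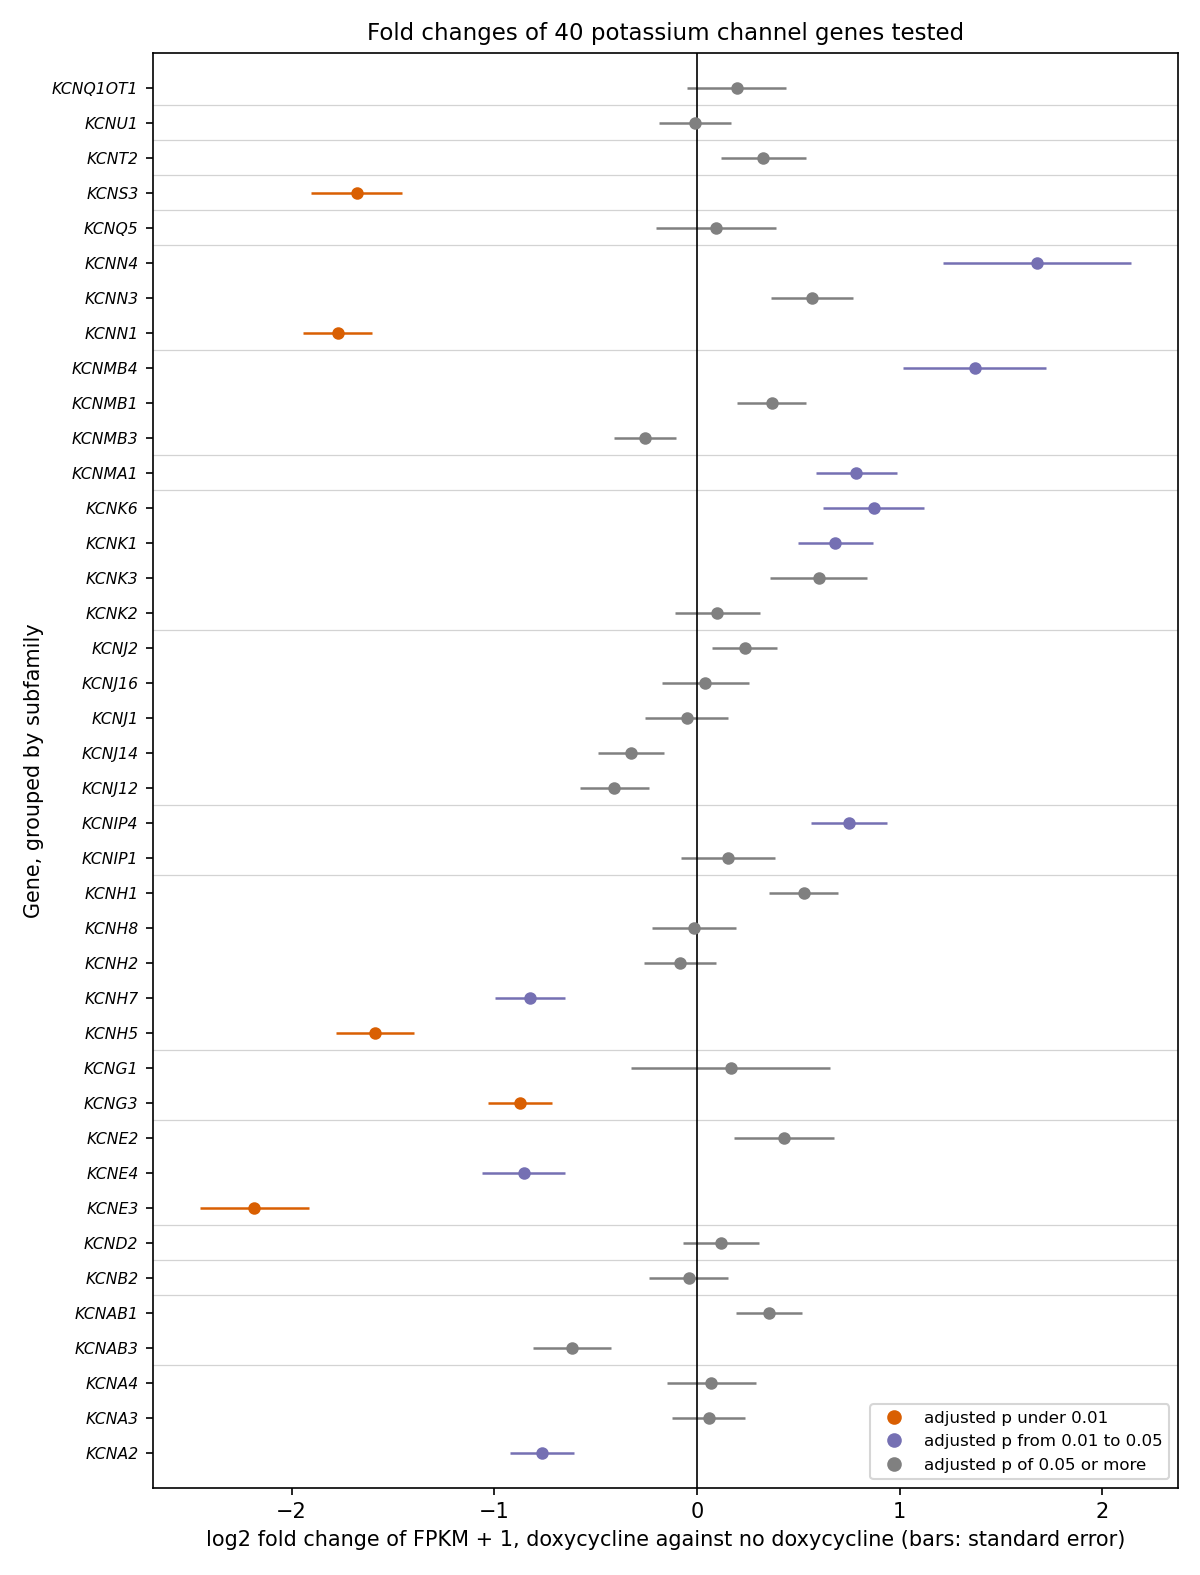
Log2 fold change of FPKM + 1 (x axis, EWSR1::FLI1 low against high, bars are standard errors) for 40 of the potassium channel genes tested (y axis, grouped by subfamily). The 5 genes with an adjusted p under 0.01, KCNN1, KCNE3, KCNH5, KCNS3 and KCNG3, all lie left of 0, and the 9 genes with an adjusted p from 0.01 to 0.05 lie on both sides.

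Because EWSR1::FLI1 binds GGAA repeats, the sequence around the 5 genes that fell was read from the GRCh37 genome. The longest GGAA repeat within 50 kb of the gene start is printed for KCNN1, KCNS3, KCNG3 and KCNH5. For KCNE3 it is the longest repeat within 10 kb, and KCNMA1 is added as a member that lay on the other side of 0. Each line runs 5′ to 3′ on the strand that reads GGAA, with the repeat in capitals and 20 bases of flank on either side.
KCNN1, chr19:18076815-18076910, minus strand: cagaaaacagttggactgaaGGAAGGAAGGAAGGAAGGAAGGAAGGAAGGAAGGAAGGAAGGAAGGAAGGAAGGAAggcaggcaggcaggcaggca
KCNE3, chr11:74179718-74179793, minus strand: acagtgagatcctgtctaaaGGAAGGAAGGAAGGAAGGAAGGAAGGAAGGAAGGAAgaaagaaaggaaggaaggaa
KCNS3, chr2:18053405-18053484, minus strand: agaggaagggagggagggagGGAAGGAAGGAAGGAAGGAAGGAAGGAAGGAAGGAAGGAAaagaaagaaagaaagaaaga
KCNG3, chr2:42752596-42752667, minus strand: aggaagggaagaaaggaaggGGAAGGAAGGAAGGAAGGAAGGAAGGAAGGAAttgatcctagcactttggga
KCNH5, chr14:63602372-63602431, plus strand: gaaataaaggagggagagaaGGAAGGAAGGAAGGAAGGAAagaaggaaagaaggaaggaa
KCNMA1, chr10:79410255-79410362, plus strand: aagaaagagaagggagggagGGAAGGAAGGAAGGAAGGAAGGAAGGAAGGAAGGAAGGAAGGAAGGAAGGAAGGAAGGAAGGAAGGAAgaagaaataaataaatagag

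These repeats hold 14 units at KCNN1, 9 at KCNE3, 10 at KCNS3, 8 at KCNG3, 5 at KCNH5 and 17 at KCNMA1. The KCNN1 repeat lies inside the gene, 14733 bases downstream of its annotated start, and overlaps no exon. The KCNE3, KCNS3 and KCNH5 repeats lie upstream of the gene start by 964, 5650 and 33637 bases. Those of KCNE3 and KCNH5 lie within ENSG00000254631 and ENSG00000259093, outside their exons, and that of KCNS3 in no annotated gene. The KCNG3 repeat lies 31494 bases upstream, within the neighboring gene MTA3 but in none of its exons. The KCNMA1 repeat lies 12148 bases upstream in sequence with no annotated gene. KCNE3 also has a 14-unit repeat 38088 bases downstream of its start, past the end of the gene. These are reference repeats, and the repeat lengths in A673 cells and the binding of EWSR1::FLI1 to them were not measured here.

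Among the calcium-activated channels, KCNN1 fell and KCNN4 and KCNMA1 had higher values with doxycycline that did not pass the test. KCNN1 (ENSG00000105642, chr19:18062102-18110894, plus strand) codes for a small-conductance channel that calcium opens through bound calmodulin. It was at 4.98, 5.10 and 6.95 FPKM in the EWSR1::FLI1 high libraries, from 139, 108 and 143 reads, and at 0.846, 1.01 and 0.966 FPKM in the EWSR1::FLI1 low libraries, from 20, 22 and 40 reads. The groups did not overlap, and the lowest EWSR1::FLI1 high library was above every EWSR1::FLI1 low library by several times. The mean went from 5.68 ± 1.10 to 0.941 ± 0.0844 FPKM (SD, n = 3 each), a ratio of 6.04. The log2 fold change of FPKM + 1, which is smaller at such levels, was -1.77 (SE 0.17, adjusted p = 0.000294, limma). Limma-voom on the reads gave -2.55 (adjusted p = 9.25e-05). KCNN1 was called in all 15 alternatives tried and moved from rank 4 to rank 21 among the 97 members by mean FPKM.

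KCNN4 (ENSG00000104783, chr19:44270685-44285128, minus strand) codes for the intermediate-conductance channel known from erythrocytes and lymphocytes. It was at 0.213, 0.168 and 0.173 FPKM without doxycycline, from 5, 3 and 3 reads, and at 0.552, 5.77 and 4.18 FPKM with doxycycline, from 11, 106 and 146 reads. All EWSR1::FLI1 low libraries were above all EWSR1::FLI1 high libraries, but replicate 1 was far nearer to the EWSR1::FLI1 high libraries than replicates 2 and 3. The log2 fold change was 1.68 (SE 0.46, adjusted p = 0.0349), and without EWSR1::FLI1 low replicate 1 it was 2.32 (adjusted p = 8.95e-05). Without EWSR1::FLI1 low replicate 2 or 3 it was 1.26 or 1.45 (adjusted p = 0.0807 or 0.112). KCNN3, another small-conductance channel gene, was at 0.727, 0.607 and 0.478 against 1.71, 1.71 and 0.820 FPKM (adjusted p = 0.0797), and KCNN2 was below the limit for testing. As a share of the summed FPKM of the KCNN subfamily, KCNN1 made up 80.7, 80.5 and 87.5% without doxycycline and 23.6, 11.6 and 15.8% with it. KCNN4 made up 3.44, 2.65 and 2.18% without doxycycline and 15.4, 66.4 and 68.4% with it. The summed level of the subfamily overlapped between the groups, at 6.18, 6.33 and 7.94 FPKM without and 3.59, 8.69 and 6.12 FPKM with doxycycline.

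KCNMA1 (ENSG00000156113, chr10:78629359-79398127, minus strand) codes for the pore of the large-conductance channel that responds to both voltage and calcium. It was at 0.757, 0.579 and 0.629 FPKM in the EWSR1::FLI1 high libraries, from 124, 72 and 76 reads, and at 1.25, 2.62 and 1.84 FPKM in the EWSR1::FLI1 low libraries, from 174, 335 and 447 reads. The groups did not overlap, and the spread among the EWSR1::FLI1 low libraries (SD 0.684 FPKM) was wider than that among the others (SD 0.0920 FPKM). The log2 fold change of 0.79 (SE 0.20) had an adjusted p of 0.0258 with limma, which did not pass the limit. Limma-voom on the reads gave 1.47 (adjusted p = 0.00360), and limma without EWSR1::FLI1 low replicate 1 gave 0.95 (adjusted p = 0.00512). Without EWSR1::FLI1 low replicate 2 limma gave 0.61 (adjusted p = 0.0789), under quantile normalization 0.62 (adjusted p = 0.0693), and without EWSR1::FLI1 high replicate 2 an adjusted p of 0.0969. Exons of KCNMA1 share 419 bases with the antisense gene KCNMA1-AS1, and whether strand was used in counting is not given in the sources used here.

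The KCNMB genes code for the accessory beta subunits of the KCNMA1 channel. KCNMB4, the form known from brain, was at 2.44, 1.86 and 2.30 FPKM without doxycycline and at 14.0, 3.90 and 6.59 FPKM with doxycycline (log2 fold change 1.37, SE 0.35, adjusted p = 0.0267). Its groups did not overlap, and replicate 1 gave the highest of the EWSR1::FLI1 low values. Limma-voom called KCNMB4 higher (adjusted p = 0.00949), and so did limma without EWSR1::FLI1 low replicate 2, at 1.74 on the log2 scale (adjusted p = 0.00399). Without EWSR1::FLI1 low replicate 1 the log2 fold change of KCNMB4 was 0.93 (adjusted p = 0.0144), and under quantile normalization its adjusted p was 0.0733. KCNMB3 was at 4.47, 4.06 and 4.03 against 3.64, 3.42 and 2.97 FPKM (adjusted p = 0.273), without overlap between the groups and without passing the test. KCNMB1, the smooth muscle form, was close to the limit for testing at a mean of 0.530 FPKM and did not pass the test (adjusted p = 0.162).

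**Figure D2:**
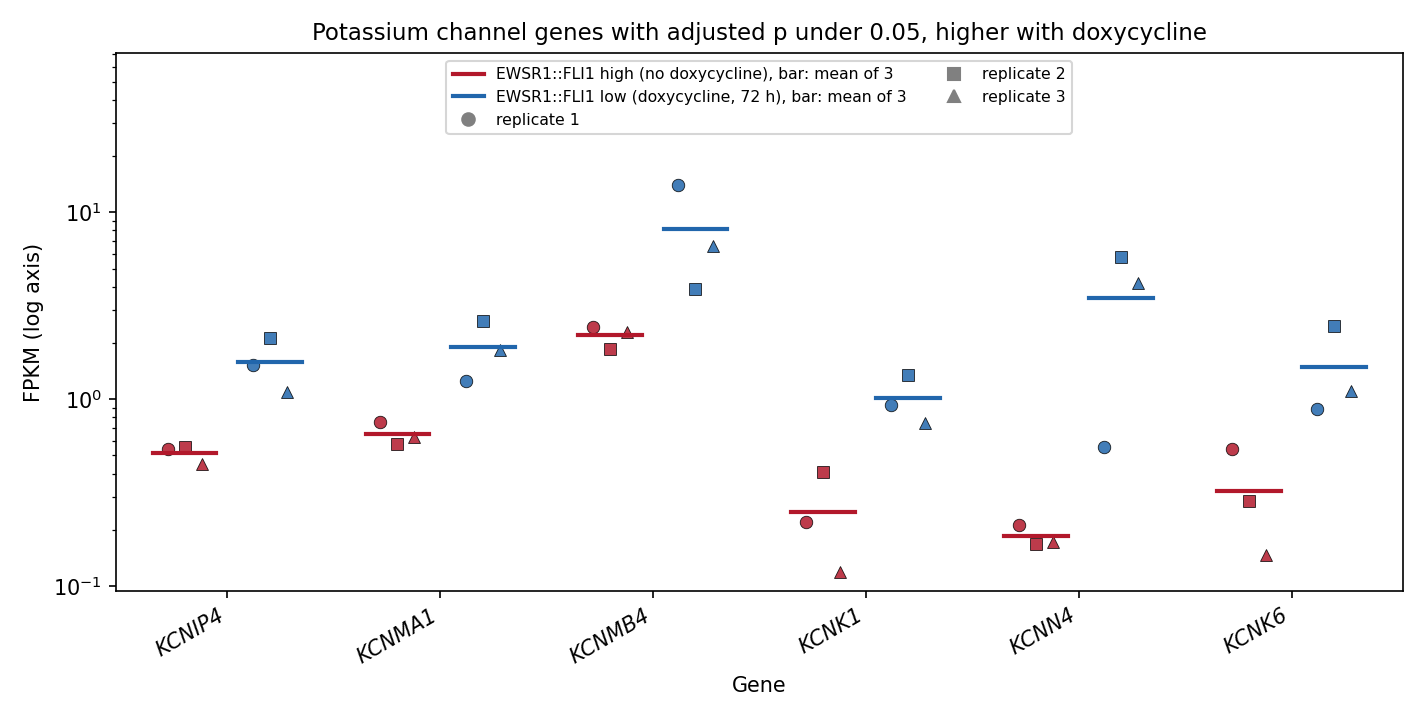
FPKM per library (y axis, log scale) of the 6 potassium channel genes with an adjusted p from 0.01 to 0.05 and higher values in the EWSR1::FLI1 low libraries (x axis). Points are libraries, with a shape for each replicate number, and bars are means of 3. For all 6 genes the EWSR1::FLI1 low libraries lie above the EWSR1::FLI1 high libraries, and KCNN4 in EWSR1::FLI1 low replicate 1 lies at 0.552 FPKM, below 5.77 and 4.18 FPKM in the other replicates.

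Among the voltage-gated channels, KCNH5 fell, and KCNH7 and KCNA2 had lower values in every EWSR1::FLI1 low library without passing the test. KCNH5 (ENSG00000140015, chr14:63166182-63568755, minus strand) codes for an ether-a-go-go channel that is mostly known from brain. It was at 5.33, 4.03 and 4.21 FPKM without doxycycline, from 221, 127 and 129 reads, and at 1.28, 0.586 and 0.682 FPKM with doxycycline, from 45, 19 and 42 reads. No EWSR1::FLI1 low library came near the EWSR1::FLI1 high range. Its mean went from 4.52 ± 0.702 to 0.849 ± 0.376 FPKM (log2 fold change -1.59, SE 0.19, adjusted p = 0.000853), and it was called in all 15 alternatives. KCNH1, the other ether-a-go-go channel gene of this type, went the other way in every library, at 0.259, 0.371 and 0.255 against 0.846, 1.11 and 0.657 FPKM. KCNH1 did not pass with limma (log2 fold change 0.53, adjusted p = 0.0593) and was called higher by limma-voom (1.50, adjusted p = 0.00959).

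KCNH7, which codes for a channel of the erg type, was at 2.09, 1.71 and 1.76 FPKM without and 0.883, 0.563 and 0.415 FPKM with doxycycline. The groups did not overlap, with a log2 fold change of -0.82 (SE 0.17, adjusted p = 0.0120 with limma, 0.00344 with limma-voom). Its exons share 189 bases with GCA on the opposite strand. The other erg gene tested, KCNH2, which carries a repolarizing current of the heart, overlapped between the groups at 0.628, 0.827 and 0.567 against 0.741, 0.335 and 0.681 FPKM (adjusted p = 0.782). KCNH8 likewise overlapped (adjusted p = 0.971), so that limma on FPKM called 1 of the 5 KCNH genes tested, lower, while limma-voom also called KCNH7 lower and KCNH1 higher.

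KCNA2, a Shaker channel of axons, was at 2.23, 2.18 and 2.79 FPKM without and 1.16, 0.951 and 0.887 FPKM with doxycycline, without overlap (log2 fold change -0.76, adjusted p = 0.0118). Its beta subunit relative KCNAB3 was at 1.40, 1.07 and 1.21 against 0.824, 0.347 and 0.235 FPKM (adjusted p = 0.0534). Without EWSR1::FLI1 low replicate 1, KCNA2, KCNAB3 and KCNH7 had adjusted p-values of 0.00741, 0.00845 and 0.00382. Without EWSR1::FLI1 low replicate 2 these were 0.0324, 0.137 and 0.0337. KCNA2 was called lower in 4 of 15 alternatives, among them quantile normalization and sample quality weights (adjusted p = 0.00288 and 0.00101, limma). KCNAB3 was called lower in 3 of 14, again with these settings among them (adjusted p = 0.00815 and 0.00193, limma). Limma-voom called neither gene (adjusted p = 0.0103 and 0.0252). The Shaker genes KCNA3 and KCNA4 overlapped between the groups, with adjusted p-values of 0.858 and 0.859. KCNQ5, which contributes to the muscarine-sensitive current of neurons, was among the 6 most abundant members at 4.82, 4.86 and 4.98 FPKM without doxycycline. With doxycycline its libraries spread from 2.73 over 6.55 to 7.81 FPKM on both sides of that range (adjusted p = 0.861). KCNT2, a sodium-activated channel gene, and KCND2, of the transient A-type current, overlapped between the groups. All 4 KCNC genes were below the limit for testing.

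The modifier subunits hold 2 of the 5 genes that fell. KCNS3 (ENSG00000170745, chr2:18059114-18542882, plus strand) was the most abundant of them, at 13.9, 9.15 and 10.4 FPKM without doxycycline from 372, 186 and 205 reads. With doxycycline it was at 3.88, 2.29 and 2.26 FPKM from 88, 48 and 90 reads, well apart from the other group. The mean went from 11.1 ± 2.46 to 2.81 ± 0.924 FPKM (log2 fold change -1.68, SE 0.22, adjusted p = 0.00139), a call that stood in all 15 alternatives. KCNG3 (ENSG00000171126, chr2:42669157-42721122, minus strand) was at 1.64, 2.07 and 1.59 FPKM from 66, 63 and 47 reads without doxycycline, and at 0.529, 0.446 and 0.537 FPKM from 18, 14 and 32 reads with it. Its groups were separate by a wide margin, with a log2 fold change of -0.88 (SE 0.16, adjusted p = 0.00617). The call ended without the filter on low values (adjusted p = 0.0125) and when any library other than EWSR1::FLI1 low replicate 1 was left out. For EWSR1::FLI1 high replicates 1, 2 and 3 left out, the adjusted p was 0.0281, 0.0396 and 0.0251, and for EWSR1::FLI1 low replicates 2 and 3 it was 0.0200 and 0.0150.

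KCNG1, a close relative of KCNG3, showed no such difference. It was at 2.92, 6.27 and 5.23 FPKM without and 2.53, 14.2 and 3.67 FPKM with doxycycline, and EWSR1::FLI1 low replicate 2 held the highest value while the other replicates lay within or below the EWSR1::FLI1 high range (log2 fold change 0.17, SE 0.49, adjusted p = 0.851). KCNB2, whose channels the modifier subunits join, was at 0.612, 0.946 and 1.44 FPKM without and 1.00, 0.749 and 1.00 FPKM with doxycycline (adjusted p = 0.911). KCNS3 stood at higher FPKM than KCNB2 in every library of both groups.

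**Figure D3:**
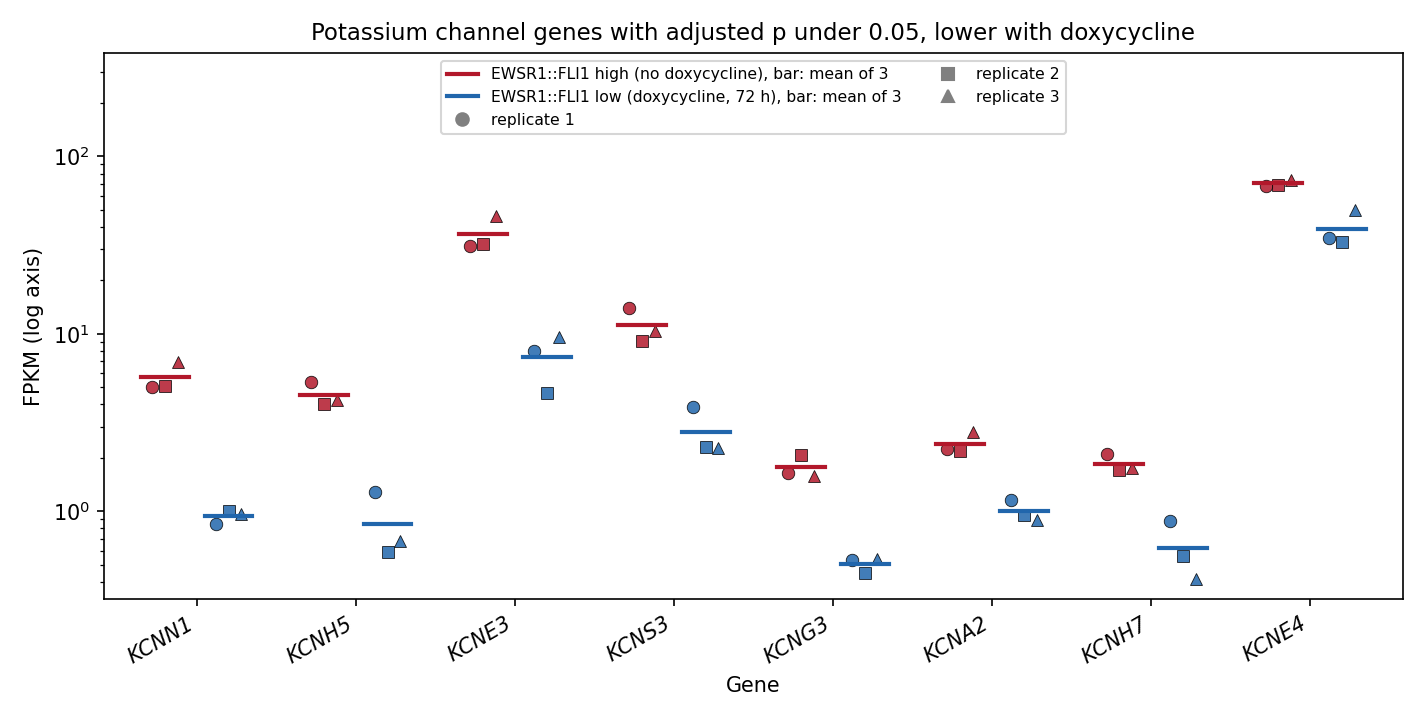
FPKM per library (y axis, log scale) of the 8 potassium channel genes with an adjusted p under 0.05 and lower values in the EWSR1::FLI1 low libraries (x axis). Points are libraries, with a shape for each replicate number, and bars are means of 3. The groups are separate for all 8 genes, from KCNG3 at 1.77 against 0.504 FPKM to KCNE4 at 70.3 against 39.1 FPKM in the means.

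KCNE accessory subunits are single-pass membrane proteins that change the gating of voltage-gated channels, and KCNE4 and KCNE3 were the most abundant members without doxycycline. KCNE3 (ENSG00000175538, chr11:74165886-74178774, minus strand), known as a partner of KCNQ1 in epithelia, was at 31.1, 32.2 and 46.2 FPKM without doxycycline, from 1002, 788 and 1099 reads. With doxycycline it was at 7.95, 4.65 and 9.64 FPKM, from 217, 117 and 461 reads. The groups were separate, and the mean went from 36.5 ± 8.43 to 7.41 ± 2.54 FPKM, a ratio of 4.93. The log2 fold change of FPKM + 1 was -2.18 (SE 0.27, adjusted p = 0.000945), and the call stood in all 15 alternatives. By the ratio of means, KCNN1 (6.04) and KCNH5 (5.33) fell further than KCNE3. Exons of KCNE3 share 609 bases with ENSG00000254928 on the opposite strand, and reads of that gene cannot be told apart from those of KCNE3 if strand was not used in counting.

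KCNE4, which inhibits several voltage-gated channels, ranked first in both groups. It was at 67.8, 69.3 and 73.7 FPKM without and 34.6, 32.8 and 49.9 FPKM with doxycycline, without overlap (log2 fold change -0.85, SE 0.20, adjusted p = 0.0206). KCNE3 and KCNS3 followed without doxycycline, and KCNMB4 and KCNE3 with it. KCNE2 overlapped between the groups (adjusted p = 0.252). KCNQ1, the best known channel partner of the KCNE proteins, was barely present, with 5 reads over the 6 libraries.

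KCNE3 and KCNE4 together made up 56.4, 58.3 and 63.5% of the summed FPKM of the 97 members without doxycycline and 34.1, 30.9 and 50.6% with it. The sum over all members was 175, 174 and 189 FPKM without and 125, 121 and 118 FPKM with doxycycline, so the total was lower in every EWSR1::FLI1 low library. Without KCNE3 and KCNE4 the sums overlapped, at 76.6, 72.5 and 69.0 FPKM against 82.1, 83.8 and 58.1 FPKM.

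KCNIP4, a calmodulin-like partner of KCND channels, was the accessory gene with the lowest adjusted p among those higher with doxycycline. It was at 0.542, 0.555 and 0.449 FPKM without and 1.53, 2.12 and 1.09 FPKM with doxycycline, without overlap (log2 fold change 0.75, SE 0.19, adjusted p = 0.0238). Its exons share 1587 bases with PACRGL and 325 bases with ENSG00000248343, both on the opposite strand. KCNIP1 and the beta subunit gene KCNAB1 did not pass the test, with adjusted p-values of 0.685 and 0.163.

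Of the 15 KCNK leak channel genes, 4 were tested, and none was called in the main fit. Limma with sample quality weights called KCNK1, KCNK6 and KCNK3 higher (adjusted p = 0.00177, 0.000793 and 0.00103). That setting called many more genes than the main fit, with 2488 of all 15504 genes and 8 of the 41 members higher. The other members it called higher were KCNN3, KCNN4, KCNMA1, KCNIP4 and KCNH1. KCNK1 was at 0.220, 0.406 and 0.119 FPKM without doxycycline and at 0.937, 1.35 and 0.742 FPKM with it (log2 fold change 0.68, adjusted p = 0.0335), from 2 to 7 reads per library against 18 to 25. KCNK6, of the same weakly rectifying type, was at 0.538, 0.284 and 0.146 against 0.889, 2.48 and 1.11 FPKM (log2 fold change 0.87, adjusted p = 0.0392). Both genes were higher in every EWSR1::FLI1 low library. The acid-sensitive channel gene KCNK3 was at 0.168, 0.221 and 0.389 against 0.424, 1.66 and 0.823 FPKM (adjusted p = 0.111), and KCNK2, a channel opened by stretch, overlapped between the groups (adjusted p = 0.784). Summed over the subfamily, KCNK transcripts were at 3.11, 3.67 and 2.30 FPKM without and 6.43, 9.41 and 4.31 FPKM with doxycycline.

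The inward rectifiers, with 16 members the largest subfamily, stayed low, and 5 were tested without a call. KCNJ12 was at 0.856, 0.720 and 0.987 against 0.215, 0.443 and 0.552 FPKM (adjusted p = 0.131), a value that is uncertain because reads of its near-identical copy KCNJ18 may have been split between them. KCNJ14 was lower without overlap (0.735, 0.660 and 0.724 against 0.513, 0.342 and 0.248 FPKM, adjusted p = 0.197). KCNJ2, which holds the resting potential of muscle, was higher without overlap (0.513, 0.512 and 0.360 against 0.877, 0.679 and 0.608 FPKM, adjusted p = 0.347), and KCNJ1 and KCNJ16 overlapped. The noncoding KCNQ1OT1, an imprinted antisense transcript of the KCNQ1 locus, was at 1.25, 0.828 and 0.793 against 2.25, 0.910 and 0.789 FPKM (adjusted p = 0.619), so its highest value was in EWSR1::FLI1 low replicate 1.

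The 56 members below the limit for testing had means of 0.0134 to 0.497 FPKM, with a median of 42 reads over the 6 libraries together. Just below the limit were KCNV2 and KCNJ15, both at 0.497 FPKM, and just above it KCNMB1 at 0.530 and KCNJ1 at 0.531 FPKM. Of the 56, 31 (55.4%) were highest in EWSR1::FLI1 low replicate 1, as were 49.5% of all 8984 genes below the limit. Their median level was 0.184, 0.196 and 0.134 FPKM without and 0.371, 0.242 and 0.146 FPKM with doxycycline, each from few reads. Limma-voom tested 16 of the 56 and called none, with the lowest adjusted p at KCNK9 (0.163). Without the filter, limma called none of the 56, with the lowest adjusted p at KCNF1 (0.0663).

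GGAA repeats of 4 or more units were counted around the gene starts of GENCODE, a length and windows chosen after the expression values were known. Of 13893 tested genes matched by symbol, 6.92% had such a repeat within 10 kb, 33.2% within 50 kb and 54.6% within 100 kb. Among the 41 members tested, 8 (19.5%), 19 (46.3%) and 27 (65.9%) had one. Of the 5 members that fell, 3 had a repeat within 10 kb (KCNE3, KCNS3 and KCNN1) and all 5 within 50 kb. For KCNN1 the repeat within 10 kb is one of 4 units at 5828 bases, and the 14-unit repeat printed above lies outside that window, at 14733 bases. Of the 36 members not called, 5 had one within 10 kb and 14 within 50 kb. Over all genes, 16.0% of the 468 called lower had a repeat within 10 kb, compared with 6.98% of the 659 called higher and 6.58% of the 12766 not called. Within 50 kb these shares were 47.9, 33.4 and 32.6%.

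The genes with higher values in the EWSR1::FLI1 low libraries were on both sides of these windows. KCNMA1 has the 17-unit repeat printed above 12148 bases from its start, and KCNK1 and KCNK6 have one within 10 kb. KCNIP4 has one 26495 bases from its start. KCNN4 and KCNMB4 are 282477 and 272489 bases from the nearest repeat. Among the members lower with an adjusted p from 0.01 to 0.05, the nearest repeat was 10109 bases from KCNE4, 20403 bases from KCNA2 and 44502 bases from KCNH7. In promoters of 300 bases around the RefSeq gene starts (GRCh38.p14), GGAAGGAA on either strand was present in 3.67% of 35116 promoters and in 6 of 110 promoters of members. None of the 7 promoters of the 5 genes that fell held it.

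**Figure D4:**
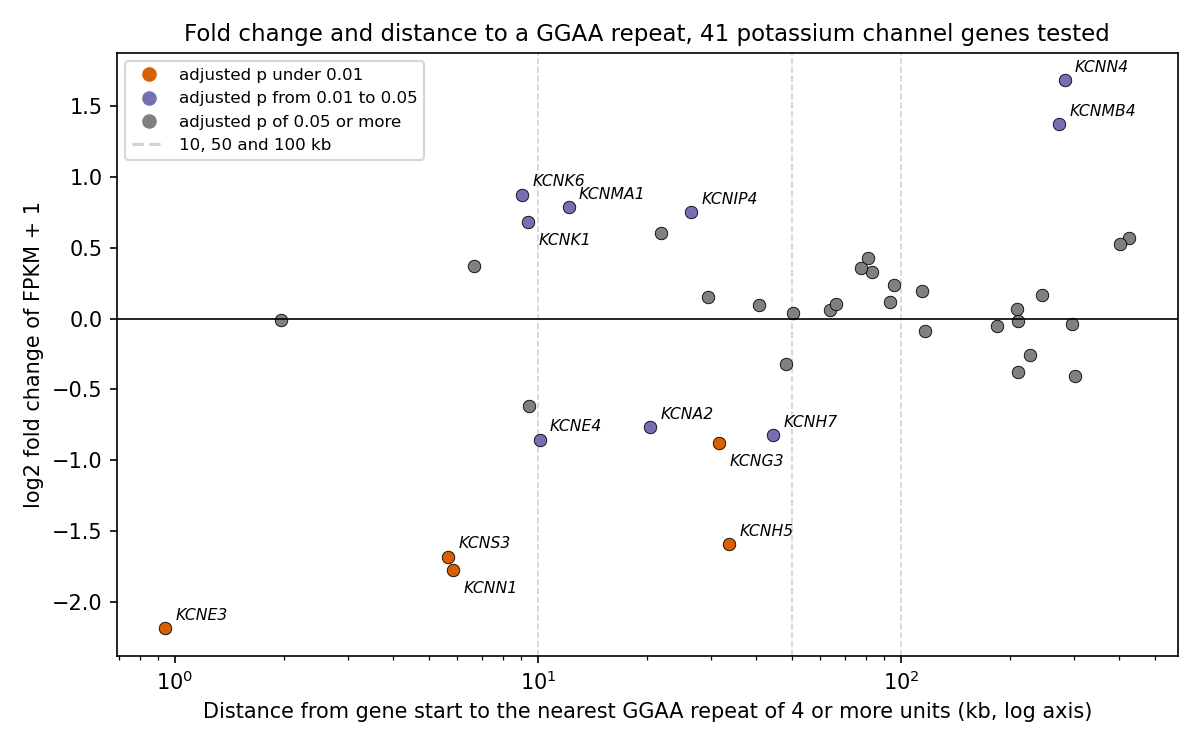
Distance from the gene start to the nearest GGAA repeat of 4 or more units (x axis, kb, log scale) against the log2 fold change of FPKM + 1 (y axis, EWSR1::FLI1 low against high) for the 41 potassium channel genes tested. KCNE3, KCNS3 and KCNN1 lie within 10 kb and KCNG3 and KCNH5 within 50 kb. The 6 genes with an adjusted p under 0.05 and higher values in EWSR1::FLI1 low are spread over these distances. KCNK1 and KCNK6 lie within 10 kb, KCNMA1 and KCNIP4 within 50 kb, and KCNN4 and KCNMB4 beyond 100 kb.

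A list of 41 genes that work with potassium channels (sodium pump subunits, chloride cotransporters, calmodulins, intracellular cation channels and channel partners) was read beside them, and 20 were tested. FXYD6, a regulator of the sodium pump, rose from 1.43 ± 0.385 to 3.72 ± 0.535 FPKM (SD, n = 3 each, log2 fold change 0.97, adjusted p = 0.00781). It was the only one of the 20 called, against 7.88% of all 15504 genes called in either direction and 4.51% called higher. The call ended without the filter on low values, under quantile normalization and when any 1 library other than EWSR1::FLI1 low replicate 2 was left out. The median log2 fold change of the 20 was 0.05.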

How the data were processed

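Total RNA of A673/TR/shEF cells was depleted of ribosomal RNA and sequenced from ScriptSeq v2 libraries, 3 per condition. The authors aligned reads to GRCh37 with STAR (2.5.0b), and their processing notes also name Cufflinks (2.2.1), DESeq2 (1.6.3) and bedtools (2.17.0). The deposited FPKM values, one for each library and gene symbol, had been scaled between libraries by the authors. The authors also deposited a table made with DESeq2, of which only the mean normalized signal was used. Its other columns (log2 fold change, standard error, test statistic and p-values) are the authors' comparison and were not used. FPKM multiplied by the ratio of that mean to the mean FPKM gave normalized counts. These were divided by the value of a single read, searched for in each library as the step that made its values whole. The result was whole reads for 100% of values (within 0.1 reads).

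Limma (3.58.1, R 4.3.3, eBayes with trend) was applied to genes that averaged 0.5 FPKM or more, on log2(FPKM + 1), which understates changes of low genes, with Benjamini-Hochberg adjustment over 15504 genes and a limit of 0.01. Limma-voom used recovered reads of genes with a mean of at least 10 reads. A floor of 3 reads per library covers counting error only.

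The members and lists were chosen with earlier results of these data known. Genes named are the members called by limma or under the block, voom or weights, KCNN1, KCNMA1, the 3 most abundant members per condition, those beside the filter and partner genes called. Other members were named after their values were seen. Gene positions are from GENCODE v44 lifted to GRCh37, which matched 96 of the 97 members, and promoters from RefSeq. Steps other than limma used Python 3.11.15 with pandas 2.3.3 and matplotlib 3.10.9. Some items are not reported here.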

Additional observations from a re-analysis of the deposited data

How the results depend on the processing

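KCNN1, KCNE3, KCNH5 and KCNS3 kept their direction and call in all 15 alternatives, KCNG3 in 9 of 15 (its direction in all 15), and KCNMA1 was called higher in 3 of 15. The count of 5 members lower became 8 under quantile normalization, 9 with sample quality weights and 8 at an adjusted p under 0.05. It became 0 with a limit of 2.5 added on the log2 fold change of FPKM + 1, and 4 to 8 when one library was left out. The count of 0 members higher became 3 with limma-voom, 8 with weights, 6 at an adjusted p under 0.05 and 0 to 2 when one library was left out. Leaving out EWSR1::FLI1 low replicate 1 gave both upper ends. Over all genes, 700 were called higher (456 without the filter, 2488 with weights, 308 to 1527 with one library left out). For 522 called lower, the counts were 297 without the filter, 813 with median-ratio scaling, 1000 under quantile normalization, 2257 with weights and 157 to 807 with one library left out. Partner genes called higher numbered 1, and 0 without the filter or under quantile normalization, 2 with weights and 0 to 1 with one library left out. Partner genes called lower numbered 0, and 1 with a pseudocount of 0.1, with a filter at 1 FPKM, with median-ratio scaling or with limma-voom, 2 under quantile normalization, 4 with weights and 0 to 2 with one library left out. The cause of these shifts was not tested.

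The conditions share replicate numbers. To look for pairing, the mean of each condition was subtracted from log2(FPKM + 1) gene by gene, and the deviations were correlated across genes. Same-numbered libraries gave 0.27, 0.09 and 0.12. EWSR1::FLI1 high replicate 3 gave 0.19 with EWSR1::FLI1 low replicate 2, and the remaining differently numbered libraries gave -0.29 to -0.01. Deviations within a condition cancel for each gene, so these values depend on one another. Whether equal numbers pair was not settled. With a replicate block, 1 member was called higher (KCNMB4), 5 lower, and 1 partner gene lower. Over all genes, 916 were then called higher and 786 lower. Depth limits the 56 members below the filter, 40 of which had fewer than 60 reads in all.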
